A study of Mus musculus with 3 samples.

Results

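The lysosomal hydrolases and membrane proteins are a set of 36 genes that was listed by function with earlier results of these arrays in view. It holds 11 glycosidases, 5 sulfatases, 8 lipid hydrolases and their cofactors, 9 membrane proteins, and the peptidase gene Tpp1, the granulin gene Grn and the regulator gene Tfeb. Values were obtained for 35 of the 36 genes, out of 18193 genes with a probe set of a single gene symbol. Cd63, a tetraspanin of late endosomes, had no such probe set and was not analysed here. Where several probe sets belonged to a gene, the brightest by its mean over the 3 arrays was read. The study measured messenger RNA in embryoid bodies, which are floating clusters of embryonic stem cells that begin to differentiate, collected on day 7 from stem cells of mouse strain 129S7/SvEv (Brd-Hprt b-m2). The cells carried wild-type human BRCA1 (WT), human BRCA1 with the substitution M1652I (MI), or human BRCA1 with a substitution that the series design gives as R1699Q and the array's own label as R1669Q (RQ). The labels do not say what remained of the mouse Brca1 gene or how many clones were used, and a human gene in mouse cells is what all 3 groups share. Feeder cells had been removed on gelatin before the bodies were formed. Each genotype was measured on 1 Affymetrix array, so the differences have no replicate check, no test could be made, and precision is limited by having 3 arrays. The words higher and lower below compare single arrays, and both mutants are set against the same WT array.

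Lysosomes are acidic organelles that break down what a cell takes up or recycles. Their soluble enzymes cut sugars, sulfate groups and lipids from larger molecules in a fixed order, so that loss of a single enzyme lets its substrate pile up, and their membrane proteins shield the organelle and carry the products out. Many lysosomal genes hold a short promoter sequence, the CLEAR element, which is bound by the transcription factor TFEB and its relatives. In the early mouse embryo the extraembryonic endoderm takes up large amounts of maternal protein and digests it in lysosomes.

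The deposited values are log2 signals. The mean over all probe sets was 6.60 on each array, with an SD over probe sets of 1.06 for MI and 1.17 for both others. The 18 probe sets for the bacterial and phage transcripts bioB, bioC, bioD and cre were all lower than on the WT array, with a median difference of -0.64 in RQ (range -1.38 to -0.42) and -0.80 in MI (range -1.48 to -0.36). These controls thus differed in the same direction as many lysosomal genes, and their part in the results was not tested. The 3' minus 5' difference, a sign of RNA integrity, was 0.64 on the WT, 0.78 on the MI and 0.52 on the RQ array for Actb, and 0.12, 0.05 and 0.11 in that order for Gapdh, so the controls ordered the arrays differently.

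The first question was how the lysosomal genes of RQ and MI bodies stood against those of WT bodies. A subset of them was lower in both mutants, led by Hexa, Gm2a, Psap, Asah1 and Scarb2, many others stood close to WT, and Manba had a signal ratio of 10.1 between RQ and WT and stood near WT in MI. A gene was counted when its higher signal on the arrays compared reached 6.31, the median of all probe sets, and 32 of the 35 genes did so. Gusb, Naglu and Npc1 stayed below that level on every array, and their differences were not read. Of the 32, 4 lay 2-fold or more below WT on the RQ array (Hexa, Gm2a, Lamp2 and Psap), where 1.49% of all 12226 genes above the level were, and 1 was at least 2-fold higher (Manba), where 1.68% of all genes were. In MI 3 of the 32 were at least 2-fold lower (Scarb2, Hexa and Asah1), where 2.44% of all 12786 genes were, and 0 were at least 2-fold higher, where 0.516% of all genes were. The genes had been listed with these comparisons known, so the counts are a description only. In RNA of whole bodies, fewer cells of a type and less RNA per cell cannot be told apart.

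**Figure D1:**
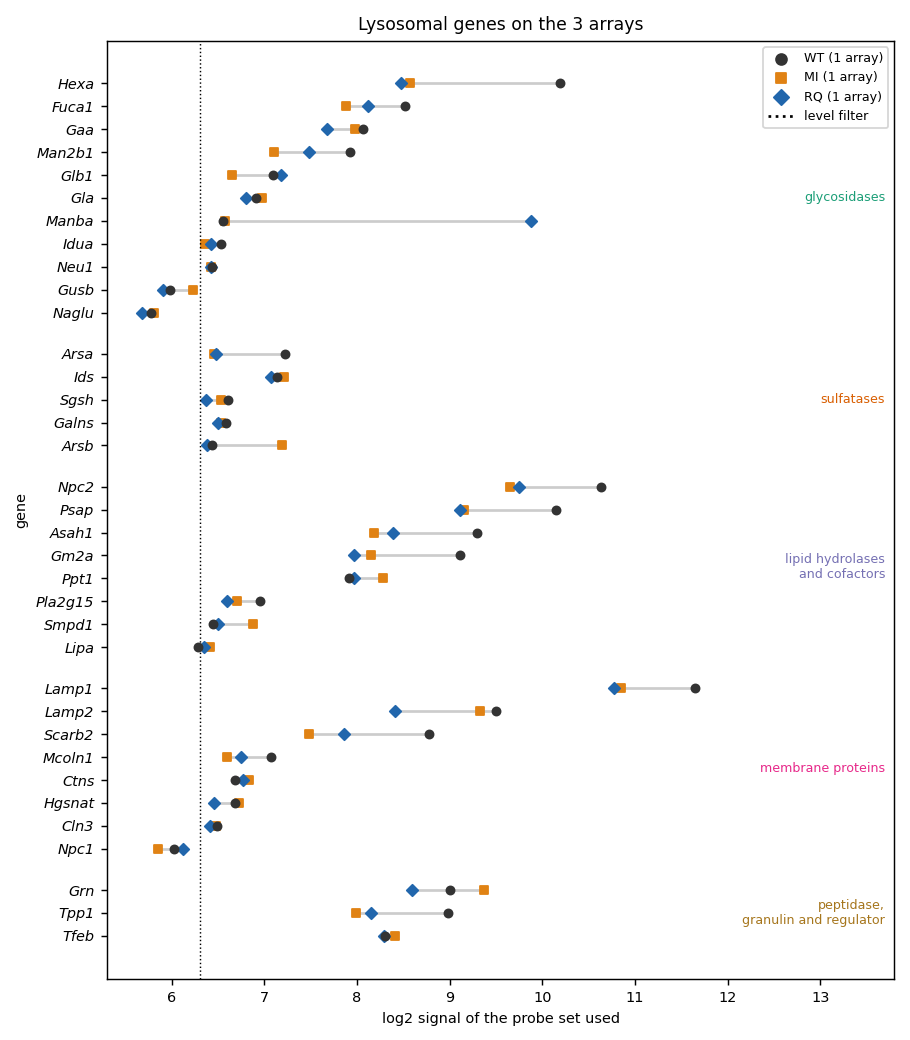
The log2 signal (horizontal axis) of each of the 35 measured genes (vertical axis, grouped by role) on the WT, MI and RQ arrays, 1 array each, with the level filter of 6.31 dotted. Hexa, Npc2, Psap, Asah1, Gm2a, Lamp1, Scarb2 and Tpp1 have their WT point to the right of both mutant points, and Manba has its RQ point at 9.88, far to the right of WT and MI.

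Several genes lay just on either side of the 2-fold limit. Just past the limit were Psap (-1.03), Lamp2 (-1.10) and Gm2a (-1.14) in RQ and Asah1 in MI (-1.12). Just short of it were Scarb2 and Asah1 in RQ (both -0.91) and Psap (-0.99), Tpp1 (-0.99), Npc2 (-0.98) and Gm2a (-0.96) in MI. At a 1.5-fold limit, 10 of the 32 genes were lower in RQ (4.34% of all genes) and 11 were lower in MI (8.04%), while 1 was higher in RQ (6.9%) and 1 was higher in MI (1.92%). The median difference over the 32 genes was -0.28 in RQ, beside 0.01 over all genes, and -0.13 in MI, beside 0.06 over all genes.

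Promoter windows from RefSeq (assembly GRCm38.p6, 250 bases before to 50 after the start of a gene) were matched by symbol for 32 of the 36 genes. They were searched on both strands for the E-box CACGTG and for 2 longer forms that contain it, TCACGTGA and the CLEAR palindrome, which adds another base on each side. The E-box was present for 9 of the 32 genes (28.1%), beside 8.09% of all 27025 genes with a window, TCACGTGA for 3 (Cln3, Gla and Mcoln1, 9.38%), beside 1.12%, and the CLEAR palindrome for 1 (Cln3), beside 0.370%. The stretches below lie before the start of 6 genes and show the E-box in capitals. Lamp1 is shown because it has 4 E-boxes and was lower in both mutants, Mcoln1, Gla and Cln3 because they carry the longer form, and Hexa and Manba because they had the largest differences downwards and upwards.
Lamp1 (chr8:13159061-13159160, plus strand): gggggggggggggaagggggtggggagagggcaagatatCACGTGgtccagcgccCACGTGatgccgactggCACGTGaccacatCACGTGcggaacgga
Mcoln1 (chr8:3500419-3500518, plus strand): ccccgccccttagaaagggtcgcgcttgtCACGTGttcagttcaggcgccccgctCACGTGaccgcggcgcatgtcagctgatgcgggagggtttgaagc
Gla (chrX:134601143-134601242, minus strand): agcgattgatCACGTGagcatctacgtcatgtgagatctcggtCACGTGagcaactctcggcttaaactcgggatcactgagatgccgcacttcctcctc
Cln3 (chr7:126583296-126583395, minus strand): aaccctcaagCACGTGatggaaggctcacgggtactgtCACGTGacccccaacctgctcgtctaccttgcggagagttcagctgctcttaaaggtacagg
Hexa (chr9:59539440-59539539, plus strand): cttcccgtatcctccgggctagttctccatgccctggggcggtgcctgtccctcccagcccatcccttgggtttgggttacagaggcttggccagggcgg
Manba (chr3:135485511-135485610, plus strand): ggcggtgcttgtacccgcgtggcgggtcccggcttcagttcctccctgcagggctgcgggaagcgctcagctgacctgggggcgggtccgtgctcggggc

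The level filter was not applied in this comparison. The 9 genes with the E-box had a median difference of -0.24 in RQ and -0.09 in MI, and the 22 measured genes without it had -0.24 in RQ and -0.09 in MI. At least 1.5-fold lower were 2 of the 9 in each mutant (Lamp1 and Arsa), and 7 of the 22 in RQ and 8 of the 22 in MI, where without the filter 2.93% of all genes were in RQ and 5.67% in MI. A match of letters describes the window and is not a binding site, and the windows of Hexa, Gm2a and Psap held none.

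Manba encodes beta-mannosidase, which removes the last beta-linked mannose when N-linked glycans are broken down. Its signal was 6.55 on the WT, 6.57 on the MI and 9.88 on the RQ array. The WT and MI arrays were alike and close to the level filter, and the RQ array stood 3.33 above WT (a signal ratio of 10.1) and 3.31 above MI (a signal ratio of 9.90). Since WT and MI were near the filter, these ratios may understate the difference in transcript. Manba ranked 1 of 12226 genes for RQ against WT, and 1 of 12800 genes for RQ against MI. Its value rests on a single probe set, so there is no second reading of it on these arrays.

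The genes nearest to Manba by their pair of differences from WT were L1td1, which binds RNA in pluripotent cells, at a distance of 1.09 log2 units, Tle4 (1.20), Klf9 (1.27), Cobl (1.31) and Lrr1 (1.38), measured over the 3 arrays. L1td1 differed by 2.97 in RQ and 1.05 in MI, so unlike Manba it was also at least 2-fold higher in MI. The difference of Tle4, a corepressor, was 2.13 in RQ and -0.03 in MI. In MI, Klf9, Cobl and Lrr1 differed by 0.12 to 0.47. Of the 3 entries on each side of Manba in the RefSeq gene table, Ube2d3, a ubiquitin-conjugating enzyme, and the noncoding 4930539J05Rik had a value here. Ube2d3 differed by 0.22 in RQ and 0.07 in MI, and 4930539J05Rik, which was below the level filter, by 0.01 and 0.07. Among the 3 nearest genes with a value on each side, a choice made after the values were seen, the differences in RQ ran from -0.50 (Slc39a8, a metal transporter, below the filter) to 0.22. None of these neighbours of Manba on chromosome 3 was higher in RQ to a like extent. A list of 8 genes held mannosidases of other compartments, such as the Golgi and the cytosol, and Engase, which is not a mannosidase. Engase was below the level filter on every array. Of the 7 genes above the filter, 0 were at least 2-fold higher or lower in either mutant. Their range in RQ was -0.77 (Man2c1) to 0.28 (Man2a1).

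Apart from Manba, the glycosidases were level or lower. Hexa encodes the alpha subunit of beta-hexosaminidase, which trims GM2 ganglioside. Its signal was 10.19 on the WT, 8.57 on the MI and 8.48 on the RQ array. Both mutant arrays were low and alike, 3.07-fold below WT in MI and 3.27-fold below WT in RQ. Hexa was the member with the largest difference downwards in each mutant, and it has 1 probe set. Man2b1, the lysosomal alpha-mannosidase that acts in the same glycan breakdown as Manba, had signals of 7.93 on the WT, 7.10 on the MI and 7.49 on the RQ array. Fuca1, which removes fucose, had signals of 8.52, 7.88 and 8.12 in the same order. On the probe sets used, both were thus lowest in MI, with differences of -0.83 for Man2b1 and -0.64 for Fuca1. In RQ they differed by -0.44 and -0.41. The second probe set of Man2b1 differed by -0.08 in MI and -0.15 in RQ. The other probe sets of Fuca1 ranged from -0.46 to -0.01 in MI and from -0.39 to -0.17 in RQ. The order of the mutants was thus not shared by all probe sets of either gene.

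The other glycosidases stayed within 1.5-fold of WT on the probe sets used. Gaa, the acid alpha-glucosidase that degrades glycogen, differed by -0.39 in RQ and -0.09 in MI, and its second probe set by -0.89 and -0.70. Glb1, the acid beta-galactosidase, had signals of 7.09 on the WT, 6.65 on the MI and 7.18 on the RQ array, so that only MI was lower (-0.44). Gla (alpha-galactosidase) and Idua (alpha-iduronidase) differed by -0.18 to 0.07 in the 2 mutants on the probe sets used. Another probe set of Gla, at 6.64 on the WT array, differed by -0.57 in RQ and -0.35 in MI. The lowest array of Idua, MI at 6.36, was next to the level filter.

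Neu1, the sialidase that starts the breakdown of sialylated glycans, gave differences of very unlike size on its probe sets. The probe set used, which has the ending that marks possible cross-hybridization, read 6.44 on the WT, 6.43 on the MI and 6.43 on the RQ array. Another probe set of Neu1 read 7.38 on the WT, 5.61 on the MI and 5.71 on the RQ array, a difference of -1.77 in MI and -1.67 in RQ, as large as that of Hexa. The third lay below the level filter on every array and differed by -0.19 in MI and -0.25 in RQ. The level of Neu1 was therefore not settled by these probe sets, and without those that end in _s_ or _x_ Neu1 would join the genes at least 2-fold lower in each mutant.

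Sulfatases remove sulfate from glycosaminoglycans and sulfated lipids. Of the 5, Arsa (arylsulfatase A, which acts on sulfatide) was lower on both mutant arrays, with signals of 7.22 on the WT, 6.45 on the MI and 6.47 on the RQ array, a difference of -0.77 in MI and -0.75 in RQ. Its mutant signals lay just above the level filter. Arsb (arylsulfatase B, which acts on dermatan sulfate) read 6.44 on the WT, 7.18 on the MI and 6.38 on the RQ array and was the only member at least 1.5-fold higher in MI. Its other probe sets differed by -0.16 and -0.06 in MI, so the higher reading rests on 1 probe set. Galns, Ids and Sgsh, which act on keratan, dermatan or heparan sulfate, differed by -0.24 to 0.08.

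Of the genes for lipid breakdown, Gm2a, Psap and Asah1, which serve sphingolipids, and Npc2 were lower in both mutants. Smpd1, which also serves sphingolipids, was not lower on the probe set used, which was dim. Gm2a encodes the activator that lifts GM2 ganglioside out of membranes for beta-hexosaminidase. Its signal was 9.11 on the WT, 8.15 on the MI and 7.97 on the RQ array, a difference of -0.96 in MI and -1.14 in RQ. Psap encodes the precursor of the saposins, which present other sphingolipids to their enzymes, and read 10.14 on the WT, 9.15 on the MI and 9.11 on the RQ array. Asah1, the acid ceramidase, read 9.30 on the WT, 8.18 on the MI and 8.38 on the RQ array. Each of these 3 genes had its WT array on top and the mutants close together. Smpd1, the acid sphingomyelinase, read 6.45 on the WT, 6.87 on the MI and 6.50 on the RQ array. Its WT and RQ signals lay near the level filter, where a difference can be understated. The probe set used has the ending that marks possible cross-hybridization, and the other probe set of Smpd1 was below the filter on every array.

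Npc2, the soluble protein that hands cholesterol to the membrane transporter Npc1, read 10.63 on the WT, 9.65 on the MI and 9.75 on the RQ array. This was a difference of -0.98 in MI and -0.88 in RQ, short of 2-fold, whereas its second bright probe set differed by -1.38 and -1.17. Lipa, the acid lipase that frees the cholesterol, stood near the level filter and differed by 0.12 in MI and 0.06 in RQ. Pla2g15, a lysosomal phospholipase, differed by -0.25 in MI and -0.36 in RQ, and Ppt1, which removes palmitate from proteins, by 0.37 and 0.06. The 8 genes of the lipid group had a median of -0.61 in MI and -0.62 in RQ.

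Among membrane proteins, Lamp1 and Lamp2, the major glycoproteins that line the organelle, differed from each other. Lamp1 read 11.64 on the WT, 10.85 on the MI and 10.77 on the RQ array, so both mutants were lower by a like amount in the deposited values (-0.79 in MI and -0.87 in RQ). That likeness depended on the scaling. After quantile normalization again Lamp1 stood at -0.37 in MI and -0.84 in RQ, and after a lowess correction on level at -0.35 and -0.79. Lamp2 read 9.50 on the WT, 9.32 on the MI and 8.41 on the RQ array, so that MI stayed near WT (-0.18) while RQ was lower (-1.10). All 4 probe sets of Lamp2 passed the level filter, with differences between -1.10 and -0.91 for RQ and between -0.33 and -0.18 for MI. Scarb2, the receptor that carries glucocerebrosidase to the lysosome, read 8.78 on the WT, 7.48 on the MI and 7.86 on the RQ array, a difference of -1.30 in MI and -0.91 in RQ. Its second probe set differed by -0.50 in MI and -0.74 in RQ.

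The transporters and channels had smaller differences. Mcoln1, the calcium channel of the lysosomal membrane, read 7.07 on the WT, 6.59 on the MI and 6.74 on the RQ array. Ctns, which exports cystine, Cln3, whose loss causes a neuronal storage disease, and Hgsnat, which acetylates heparan sulfate at the membrane, differed by -0.23 to 0.15 in the 2 mutants. Their signals lay between 6.41 and 6.83 on all arrays, near the level filter, where a difference can be understated.

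Tpp1, a peptidase that removes tripeptides, read 8.98 on the WT, 7.99 on the MI and 8.15 on the RQ array. It was thus lower in both mutants on the probe set used, by -0.99 and -0.83. The second probe set of Tpp1, dimmer at 6.65 on the WT array, differed by -0.28 in MI and -0.19 in RQ. Grn, the precursor of the granulins, had signals of 9.00 on the WT, 9.37 on the MI and 8.59 on the RQ array, higher in MI and lower in RQ on the probe set used. Its 3 probe sets ranged from -0.11 to 0.37 for MI and from -0.93 to -0.34 for RQ, so only the lower value in RQ was shared by all of them. Tfeb, which encodes the regulator of lysosomal genes, read 8.30 on the WT, 8.41 on the MI and 8.29 on the RQ array, with differences of 0.11 and -0.01. The transcript level of Tfeb thus stood near WT on each array, while its activity, which depends on where the protein is in the cell, is not read by an array.

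**Figure D2:**
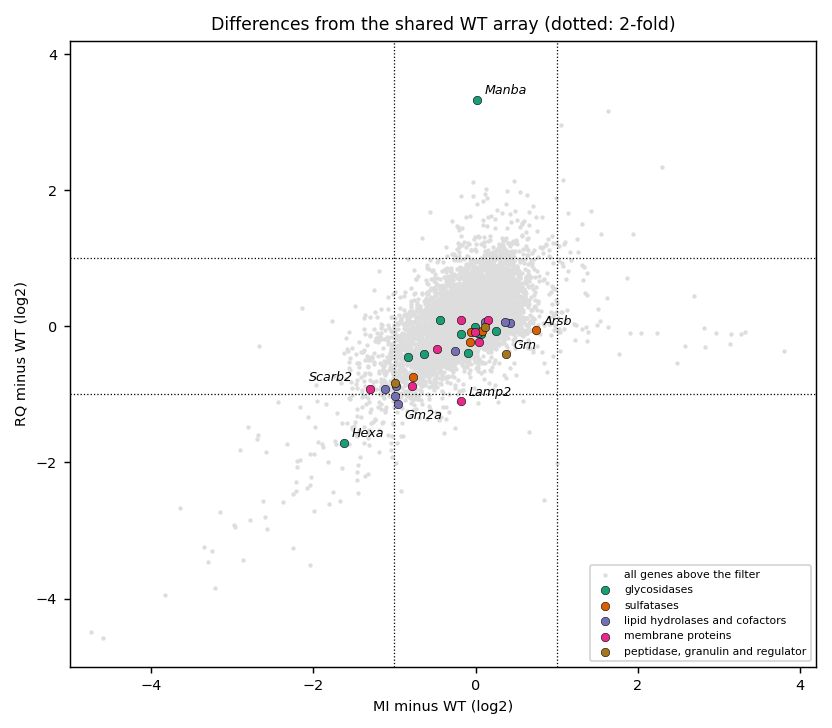
The log2 difference from WT in MI (horizontal axis) and in RQ (vertical axis) for the 35 lysosomal genes, coloured by role, over all genes above the level filter in grey. Both axes use the same WT array, so the differences on them are not independent. Manba sits at 3.33 in RQ and 0.02 in MI, and Lamp2 at -1.10 and -0.18.

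Most of the lower readings were those of bright probe sets. Of the 35 genes, 13 had a mean of 8 or more over the 3 arrays, a split made after the values were seen. In RQ 9 of these 13 were at least 1.5-fold lower, where 10.6% of all 2642 genes of that brightness were, and their median was -0.88, beside 0.03. In MI 9 of the 13 were at least 1.5-fold lower, where 25.3% of all genes of that brightness were, and their median was -0.96, beside -0.28. Bright genes in general thus had a median below 0 on the MI array and near 0 on the RQ array. Of the 15 genes with a mean under 7 that passed the filter, 1 was at least 1.5-fold lower in each mutant (Arsa), where 1.33% of all genes of that brightness were in RQ and 1.4% in MI. Their median was -0.08 in RQ and -0.01 in MI. Ppt1, Tfeb and Grn were bright genes within 1.5-fold of WT in both mutants on the probe sets used. Another bright probe set of Grn differed by -0.93 in RQ. After quantile normalization again, Grn (0.73) and Ppt1 (0.60) were more than 1.5-fold higher in MI, while Tfeb (0.38) was not.

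**Figure D3:**
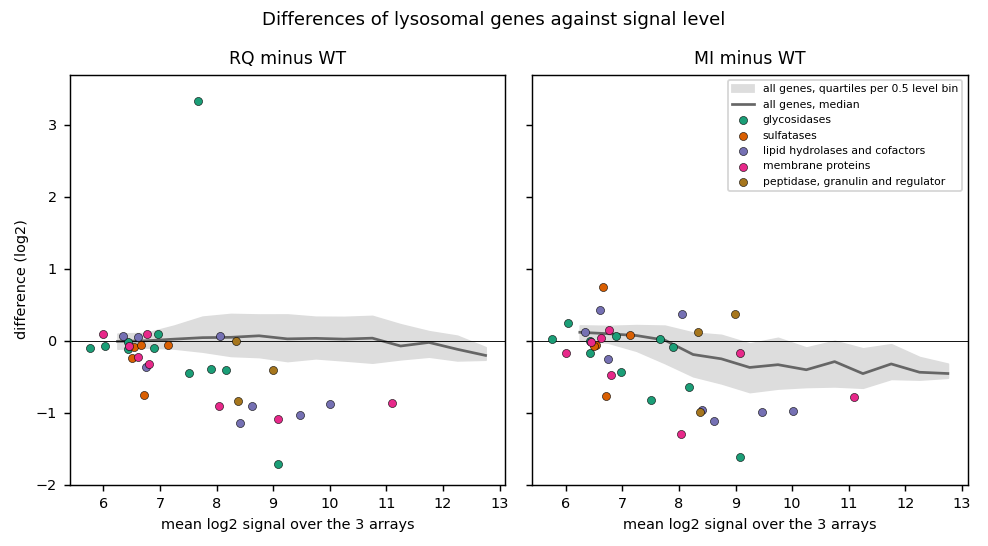
The log2 difference from WT (vertical axis) of RQ (left) and MI (right) against the mean log2 signal over the 3 arrays (horizontal axis), with lysosomal genes as points coloured by role and the median and quartiles of all genes as line and band. Most lysosomal genes with a mean of 8 or more lie under the band in RQ (median -0.88 beside 0.03 for all genes), and in MI the band itself lies under 0 at these levels (median -0.28).

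The second question was how the 2 variants differed from each other. Between RQ and MI, Manba was at least 2-fold higher in RQ (1.98% of all 12800 genes were), also the 1 gene at least 1.5-fold higher (9.54% of all genes were), and 0 of the 32 genes were at least 2-fold lower (0.508% of all genes were). At a 1.5-fold limit 3 genes were lower in RQ than in MI, namely Lamp2 (-0.92), Arsb (-0.81) and Grn (-0.78), where 1.55% of all genes were. Genes of brightness 8 or more were in general higher in RQ than in MI, with a median of 0.33, and the 13 lysosomal genes of that brightness had a median of -0.08, with 2 of them at least 1.5-fold lower (2.35% of all such genes were). Among the soluble enzymes and cofactors that were lower in both mutants, RQ minus MI was -0.09 for Hexa, -0.04 for Psap, -0.18 for Gm2a, 0.10 for Npc2, 0.20 for Asah1 and 0.16 for Tpp1. These values depended on the scaling. After quantile normalization again they were -0.44 for Hexa, -0.47 for Psap, -0.45 for Gm2a, -0.26 for Npc2 and -0.10 for Asah1.

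Probe sets of the same gene gave a check within each array. Of the 35 genes, 24 had more than 1 probe set and 11 had 1, among them Hexa, Manba, Asah1, Lamp1, Arsa and Tfeb. Both bright probe sets of Psap were lower, with -1.03 and -0.59 in RQ and -0.99 and -0.71 in MI. For Gm2a the second probe set was at -0.51 in RQ and -0.60 in MI. The second probe sets of Tpp1 (-0.19 in RQ and -0.28 in MI) and Man2b1 (-0.15 and -0.08) stayed within 1.5-fold of WT. In MI the probe sets used for these genes were at -0.99 and -0.83. With the mean of all probe sets of a gene, which includes those with little signal, Psap stood at -0.81 and Gm2a at -0.59 in RQ, and Scarb2 at -0.90 in MI.

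**Figure D4:**
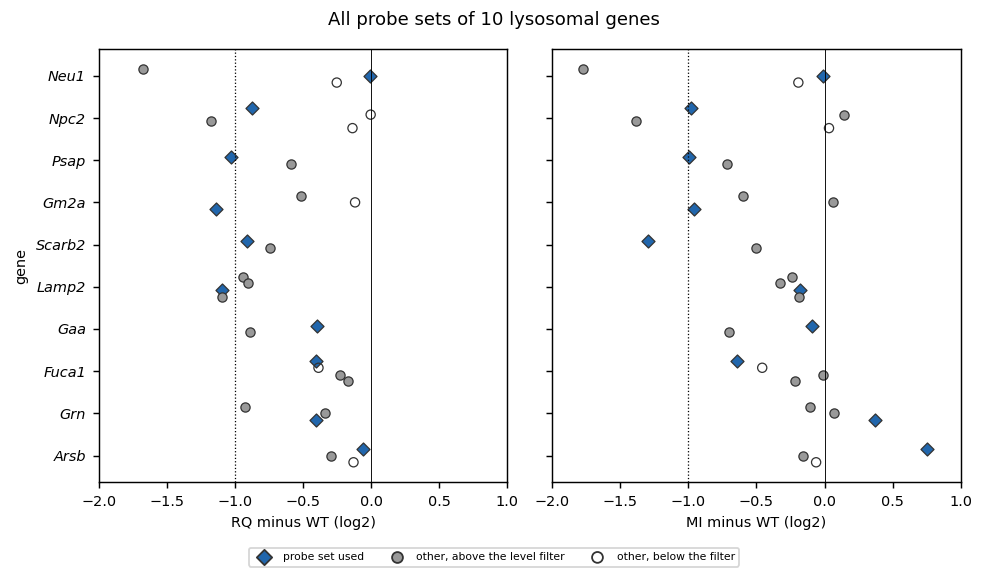
The log2 difference from WT (horizontal axis) in RQ (left) and MI (right) for every probe set of 10 lysosomal genes (vertical axis), with the probe set used as a diamond and those below the level filter open. The 4 probe sets of Lamp2 lie together near -1 in RQ and between -0.33 and -0.18 in MI, whereas those of Neu1 lie as far apart as -1.67 and -0.01 in RQ.

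Other genes of the lysosomal pathway were read from lists of proton pump subunits, sorting factors, further hydrolases and membrane proteins, regulators, and endosome and autophagy genes. The list of mannosidases of other compartments given above was counted together with them. Of 108 such genes above the level filter in RQ, 6 were at least 2-fold lower and 1 was higher, and of 107 in MI, 9 were lower and 0 were higher. Of all genes, 1.49% were lower and 1.68% higher in RQ, and 2.44% were lower and 0.516% higher in MI, so that a count of 0 in a list of 10 to 20 genes is near the background. The proton pump that acidifies the lumen had 3 of 18 subunit genes at least 2-fold lower in each mutant, with a median of -0.20 in RQ and -0.54 in MI. Atp6v0b, a subunit of the membrane sector, read 9.83 on the WT, 8.36 on the MI and 8.50 on the RQ array. The other 2 were Atp6ap1 (-1.08) and Atp6v1g1 (-1.02) in RQ, and Atp6v0d1 (-1.13) and Atp6v1f (-1.04) in MI. The highest subunit gene in either mutant was Atp6v0a2, at 0.19 in RQ and 0.29 in MI.

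Factors that tag enzymes with mannose 6-phosphate and sort them had 0 of 20 genes past 2-fold in RQ, with a median of -0.03. In MI 2 of 20 were at least 2-fold lower, Gga2, a sorting adaptor (-1.46), and Vps26a, of the retromer coat that recycles the receptors (-1.07). The mannose 6-phosphate receptor genes M6pr and Igf2r differed by -0.27 and -0.21 in RQ and by -0.56 and -0.45 in MI. Hydrolases outside the 36 genes had 0 of 10 past 2-fold in either mutant, with Aga (-0.52) and Pld3 (-0.43) lowest in RQ. Other membrane proteins had 0 of 15 past 2-fold in RQ and 0 of 14 in MI, where Litaf (-0.97) and Laptm4b (-0.94) were lowest.

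Of the relatives and regulators of Tfeb, 0 of 15 were past 2-fold in RQ and 1 of 15 in MI, namely Lamtor2, a subunit of the complex that docks mTORC1 on the lysosome (-1.36). Tfe3 differed by -0.23 in RQ and -0.40 in MI, and Mitf by 0.22 and 0.44. The largest spread was in the endosome and autophagy list, where 3 of 23 genes stood 2-fold or more below WT in each mutant and 1 was higher in RQ. Gabarap, which helps autophagosomes mature, read 10.67 on the WT, 9.64 on the MI and 8.75 on the RQ array, while its relative Gabarapl2 read 8.67 on the WT, 9.66 on the MI and 9.89 on the RQ array. The related genes thus stood on opposite sides of WT. Rab11a, a recycling endosome GTPase (-1.18 in RQ and -1.21 in MI), and Map1lc3b, a marker of autophagosomes (-1.004 in RQ and -1.001 in MI), were the other genes at the limit.

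**Figure D5:**
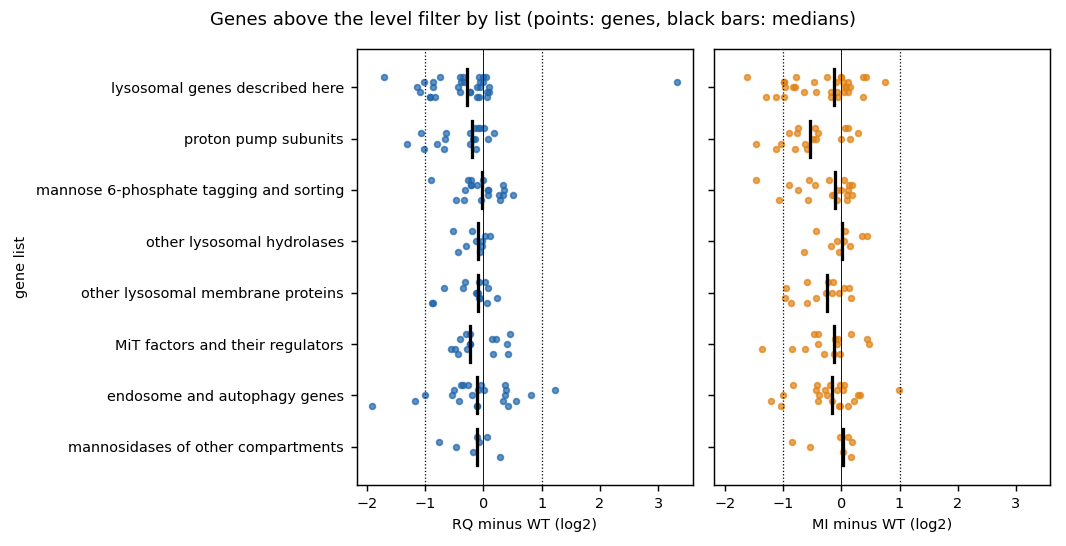
The log2 difference from WT (horizontal axis) in RQ (left) and MI (right) for the lysosomal genes and 7 further lists (vertical axis), with genes above the level filter as points, medians as black bars and 2-fold as dotted lines. Manba stands alone at 3.33 in RQ, and the pump subunits have the lowest median in MI (-0.54).

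Markers of other cell types also differed between the arrays, though not in every list. Of 11 parietal endoderm markers above the filter, 7 were at least 2-fold lower in each mutant, and the summed signal of the whole list of 12 was 13.77 on the WT, 11.33 on the MI and 11.09 on the RQ array on the log2 scale. Of 12 visceral endoderm markers above the filter, 4 were at least 2-fold lower in each mutant (Cubn, Lrp2, Amn and Dab2), and the summed signal of the list of 15 was 11.99 on the WT, 10.52 on the MI and 10.31 on the RQ array, while Afp, Ttr and Apoa1 of that list lay between 6.23 and 7.34 on all arrays. Of the 14 stem cell markers, 7 were at least 2-fold higher in RQ, and of 13 in MI 3 were higher and 2 lower. Of 9 fibroblast markers above the filter, 4 were at least 2-fold higher in MI (Col1a2, Dcn, Vim and S100a4) and 0 of 7 in RQ. Macrophages, which are rich in lysosomes, had 10 markers with a summed signal of 10.01 on the WT, 10.05 on the MI and 9.84 on the RQ array. Of these markers, 0 of 8 above the filter were past 2-fold, the lowest being Cd68 (-0.87 in each mutant). Cd68 also belongs to the list of other lysosomal membrane proteins above, so it was counted in both lists. The part of these cell types in the lysosomal differences was not tested.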

How the data were processed

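The values are the log2 signals of 45101 probe sets on 3 arrays that the authors deposited, and Partek and RMA, a method of background subtraction, normalization and probe summary, are named without versions in the submitters' processing notes. The sources used here name no batch, and detection calls were not used, so signal over background could not be set per gene. Labelling started from 6 ug of total RNA per the labels. Of the probe sets, 34958 had 1 gene symbol in the platform annotation, 932 had more than 1, and the other 9211 were without a symbol. These numbers include 64 control probe sets, which were kept apart. Without the controls, 34945 probe sets had 1 gene symbol. The Entrez identifiers of all 35 measured genes were in the RefSeq table of GRCm38.p6. The genome build behind the array was not stated in the labels or files used. Coordinates are those of the RefSeq promoter windows.

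Differences of log2 values were taken between arrays, with pandas 2.3.3 and numpy 2.4.6, and counted at 2-fold among genes whose higher signal reached 6.31. With 1 array per genotype no test was run. The counting was tested on simulated data. All members are named, and for each other list the text names at most the 2 highest and 2 lowest genes and those past 2-fold; further genes of these lists (M6pr, Igf2r, Tfe3, Mitf and markers) were named after their values were seen. Members and lists were chosen with earlier results of these data known. Alternatives were other scalings of the arrays, level filters, probe set choices and fold limits.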

Additional observations from a re-analysis of the deposited data

How the results depend on the processing

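Manba stayed the only lysosomal gene past the fold limit upwards in RQ under every alternative run, and Hexa stayed at least 2-fold lower in both mutants wherever it had a value. Without probe sets that end in _a_, _s_ or _x_, Hexa, Lamp1, Psap, Gaa and Smpd1 had no value. The number of lysosomal genes 2-fold or more below WT in RQ was 4, and became 2 with the mean of all probe sets. It was 3 without _a_, _s_ and _x_ probe sets, 5 without _s_ and _x_ probe sets, 10 at a 1.5-fold limit and 1 at a 3-fold limit. The number lower in MI was 3, and became 7 with arrays centred on their medians, which moved Psap, Gm2a, Npc2 and Tpp1 past the limit. The count over all genes went from 312 to 383 with this centring. The number lower in MI became 2 with quantile normalization again, a lowess correction on level or the mean of all probe sets. In that order the count over all genes was 193, 217 and 198. Without _s_ and _x_ probe sets 4 lysosomal genes were lower in MI, with 11 at 1.5-fold and 1 at 3-fold on the probe sets used. The number higher in MI went from 0 to 1 at 1.5-fold. Between RQ and MI the number at least 2-fold lower was 0, and became 2 with quantile normalization again or a lowess correction on level (Lamp2 and Grn in both), and 3 at 1.5-fold. With the filter at the 75th percentile the median was -0.44 for RQ against WT and -0.56 for MI against WT, since fewer dim genes were kept, and with means of probe sets it was -0.33 for MI against WT. The small median of RQ against MI (-0.06) turned to 0.012 with arrays centred on their medians. Asah1 in MI was at -0.82 after quantile normalization again and -0.90 after the lowess correction, short of 2-fold; the cause was not tested. Of 615 values of single genes under these alternatives, 598 stayed on their side of 2-fold, 12 went past it, 5 fell short of it and 0 changed sign while past it. These values include genes far inside the limit and those below the level filter. Genes with 1 probe set kept the same value, or had none, under the probe set choices. The number that stayed was thus in part fixed beforehand and is no measure of precision. The choice without _s_ and _x_ probe sets alone was added after seeing the data. No paired analysis was possible because each genotype has 1 array. Signals near the filter are compressed, so differences of dim genes such as Gusb, Naglu, Npc1, Lipa and Cln3 cannot be read as absence of change.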
